A study of Mus musculus with 6 samples.

Results

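Collagen genes were followed in brain endothelial cells of mouse pups in which Rbpj, the transcription factor at the end of the Notch pathway, had been floxed on both alleles. The members were all protein-coding genes whose symbol is Col, a number, the letter a and a number. They number 44 of the 55450 genes in the count table, and comprise 8 basement membrane, 11 fibrillar and 25 other collagen genes. A total of 41 passed the filter on low counts and were tested. The mutant group held 3 poly(A) RNA-seq libraries of genotype Cdh5(PAC)-CreERT2; Rbpjflox/flox and the control group 3 libraries of genotype Cdh5(PAC)-CreERT2; Rbpjflox/WT. Both groups carried a tamoxifen-inducible Cre under the Cdh5 promoter, which is active in endothelial cells. Both also carried at least 1 floxed Rbpj allele, and pups of both were given 100 µg tamoxifen at postnatal days 1 and 2. Cells were taken at postnatal day 7 from pups of either sex on a mixed FVB/N and C57BL/6 background and enriched with magnetic beads for CD31, an endothelial surface protein. RNA was pooled from many pups, and no label says that the 3 libraries per group stem from separate pools. The p-values therefore cover only the variation among these 6 libraries, and that variation may be technical.

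Collagens are secreted proteins whose chains wind around each other into helices. Fibrillar collagens such as types I, III and V assemble into the ropes of connective tissue and are made mainly by fibroblasts and mural cells. Type IV collagen forms the sheet-like network of basement membranes, and in brain capillaries the endothelial cells, pericytes and astrocytes share such a membrane. Types XV and XVIII are basement membrane collagens that also carry sugar side chains. The other types include the beaded filaments of type VI, the short-chain network collagens of types VIII and X, the FACIT collagens that decorate fibrils, and transmembrane collagens.

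Libraries held 75744913 to 81556241 counts in the mutant group and 78577192 to 82092461 in the control group, and about 4 counts stood for 1 read pair, so that 1 CPM (a count scaled to library size) corresponded to 18.5 to 20.6 read pairs. Rbpj itself had 47.9, 46.8 and 45.2 CPM in mutant libraries, against 54.3, 54.3 and 53.8 CPM in control libraries (adjusted p = 0.0129). Its gene-level count does not separate floxed from other exons, so the extent of deletion was not measured. Of 12 endothelial markers, all were detected, with a summed level of 12880.1 to 13941 CPM in mutant and 12599 to 12905.5 CPM in control libraries. Among them 4 were called higher and 2 lower (50%, against 14.4% of all genes tested). The libraries also held RNA of other cells. Fibroblast markers summed to 538 to 574 CPM in mutant and 443 to 452 CPM in control libraries. That sum includes Apod, the 1 fibroblast marker called higher, and 12 of the 14 had a negative log2 fold change (mutant over control). Choroid plexus markers summed to 3473 to 4518 CPM in mutant and 5136 to 5586 CPM in control libraries. Most of that was Ttr, at 3333 to 4339 CPM in mutant and 4939 to 5374 CPM in control libraries. In such bulk samples, fewer cells of a type and less RNA per cell cannot be told apart. Mutant library 3 stood apart from the other mutant libraries on the second principal component, at -55.6 against 31.2 and 26.2.

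Promoter sequences of 35 of the 44 collagen genes were found in RefSeq (GRCm38.p6), in windows from 250 bases before to 50 bases after the start. The other 9 had no window of their own and were not searched: Col1a1, Col2a1, Col4a3, Col5a2, Col9a3, Col12a1, Col14a1, Col22a1 and Col26a1. The letters TGGGAA, the core of the site that Rbpj recognises, were searched on both strands. They occurred in 12 of 38 collagen windows (31.6%) and in 25.6% of all 32851 windows. The GC box letters GGGCGG occurred in 23 of 38 collagen windows (60.5%) and in 35.7% of all windows. Stretches without annotated exons are shown for the gene with the largest significant rise (Col5a3), for the gap shared by Col4a3 and Col4a4, for 1 higher and 1 lower gene that hold the letters TGGGAA (Col28a1 and Col4a5), and for the gene with the largest significant fall (Col6a6). Each is read 5′ to 3′ on the strand given, and capitals mark TGGGAA.
Col5a3, chr9:20815068-20815317, minus strand: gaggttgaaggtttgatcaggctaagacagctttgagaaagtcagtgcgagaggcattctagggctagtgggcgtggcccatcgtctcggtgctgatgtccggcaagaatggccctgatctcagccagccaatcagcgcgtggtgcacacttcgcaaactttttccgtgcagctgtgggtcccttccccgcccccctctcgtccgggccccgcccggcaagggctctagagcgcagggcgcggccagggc
Col4a3 and Col4a4 gap, chr1:82586850-82586920, minus strand: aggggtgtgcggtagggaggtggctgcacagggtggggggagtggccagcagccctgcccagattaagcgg
Col28a1, chr6:8192618-8192867, minus strand: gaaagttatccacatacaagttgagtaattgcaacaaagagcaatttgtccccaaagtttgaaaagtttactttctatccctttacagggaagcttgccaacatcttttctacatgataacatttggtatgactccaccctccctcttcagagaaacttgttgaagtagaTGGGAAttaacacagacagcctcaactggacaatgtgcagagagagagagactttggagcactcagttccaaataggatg
Col4a5, chrX:141475169-141475384, plus strand: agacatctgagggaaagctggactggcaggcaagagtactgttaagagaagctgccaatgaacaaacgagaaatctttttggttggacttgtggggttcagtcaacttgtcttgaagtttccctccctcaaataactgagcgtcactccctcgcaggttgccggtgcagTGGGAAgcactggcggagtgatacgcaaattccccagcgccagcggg
Col6a6, chr9:105828161-105828335, minus strand: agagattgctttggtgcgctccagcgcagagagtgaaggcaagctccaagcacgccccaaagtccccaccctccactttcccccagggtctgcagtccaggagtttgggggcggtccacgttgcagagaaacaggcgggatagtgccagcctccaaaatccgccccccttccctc
The letters TGGGAA are absent from the stretches of Col5a3 and of the Col4a3 and Col4a4 gap. The printed stretch of Col6a6 has none either, but its window holds 1 match at -65 from the RefSeq start, in an annotated exon that was left out of the stretch. They were found in the windows of called genes of both directions, in 2 of 6 windows of higher genes and 4 of 12 of lower genes. A match is a description of the letters and not evidence of binding.

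Rbpj-mutant libraries had more of the main basement membrane chains Col4a1 and Col4a2, and more collagen genes were called lower than higher. Of the 41 tested collagen genes, 7 were higher and 12 lower in mutant libraries at an adjusted p under 0.05, which is 46.3%, against 14.4% of all 19549 genes tested (7.56% higher and 6.83% lower). The higher genes were Col4a1, Col4a2, Col4a3, Col5a3, Col2a1, Col9a1 and Col28a1. The lower genes were Col4a5, Col18a1, Col1a2, Col3a1, Col5a2, Col6a2, Col6a6, Col8a1, Col8a2, Col13a1, Col23a1 and Col26a1. The median log2 fold change (mutant over control) of the tested members was -0.23, against -0.01 over all genes. The groups did not overlap in 27 of the 41 members, 7 with mutant above and 20 with mutant below control, while 34.1% of all genes tested showed no overlap. Without control library 1 or control library 2 the count of lower members was 5 in each case, and that of higher members 6. The share of all genes called was then 9.44% or 9.87%. It was 10.7% without control library 3 and 10.4%, 9.8% or 11.9% without mutant library 1, 2 or 3. In the other alternative fits it was 14.3% with RLE size factors (7 members higher and 11 lower) and 14.6% scaled by library size alone (7 and 10). It was 9.61% unfiltered (7 and 10) and 23.7% with a stricter filter, which tested 11834 genes (5 and 11). After dividing counts by 4 it was 17.9% (7 and 12), and with replicate number as a block 10.5% (6 and 13). DESeq2 called 18.6% of genes, with 7 higher and 15 lower members, and limma-voom 13.9%, with 7 higher and 11 lower members.

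**Figure D1:**
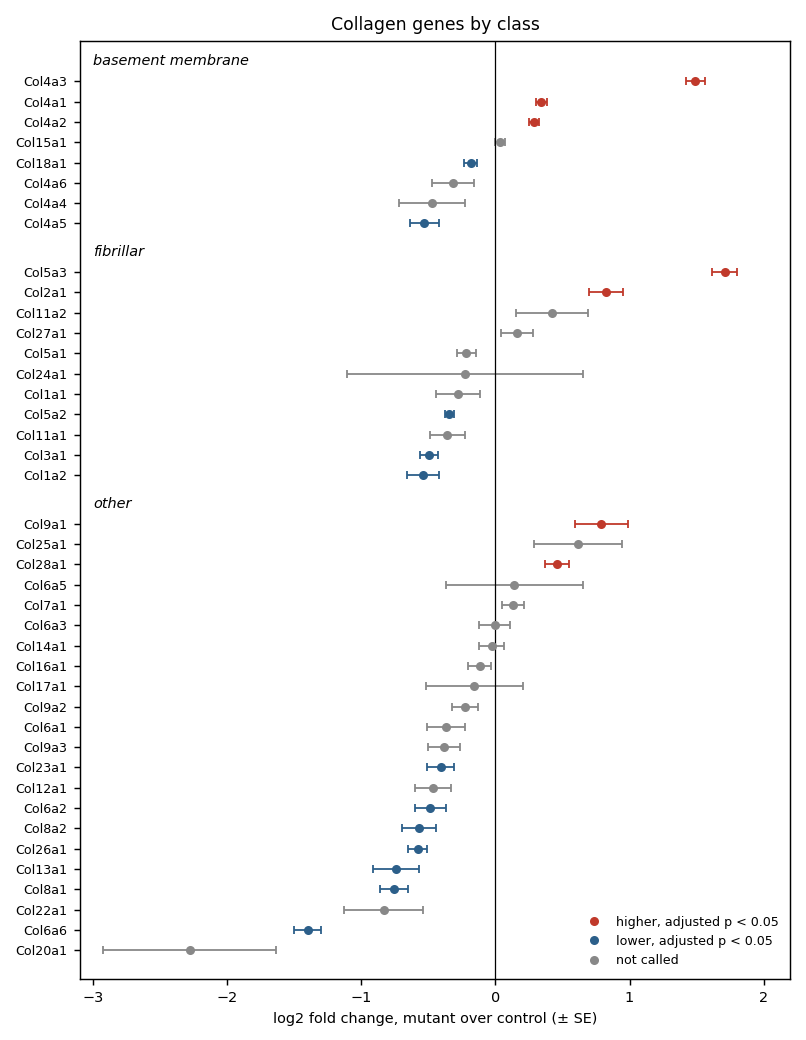
Log2 fold change of each tested collagen gene, mutant over control, with its standard error, in the 3 classes. Col5a3 and Col4a3 lie farthest to the right at 1.71 and 1.49, and Col6a6 is the lowest called gene at -1.40.

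Basement membrane collagens. These 8 genes split: 3 were higher, 2 lower and 3 not called, with a median log2 fold change of -0.07. The share called was 62.5%, against 14.4% of all genes tested. Type IV collagen chains assemble into trimers, and their genes lie head to head in pairs. Col4a1 (ENSMUSG00000031502, chromosome 8, 11198423 to 11312826, minus strand, GRCm38) encodes the major chain of the network. It had 5251, 5327 and 5772 CPM in mutant libraries, against 4269, 4385 and 4242 CPM in control libraries. Every mutant library lay above every control library, and mutant library 3 was highest. This amounted to 0.34 ± 0.041 (SE) on the log2 scale (adjusted p = 0.00138). Col4a2 (ENSMUSG00000031503, chromosome 8, 11312805 to 11449287, plus strand), its partner chain, had 4581, 4583 and 4979 CPM in mutant libraries, against 3835, 3908 and 3838 CPM in control libraries. It followed the same order, with a log2 fold change of 0.29 ± 0.039 (adjusted p = 0.00245). The annotated starts of this pair overlap by 22 bases on opposite strands, and the sources used here do not state whether counting was strand-specific.

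Per kilobase of exon, with the union of exons as length, the pair stayed close to equal. The ratio of Col4a2 to Col4a1 was 0.984, 0.970 and 0.973 in mutant libraries and 1.01, 1.01 and 1.02 in control libraries. The mutant ratios all lay below the control ratios, a difference of -0.05 on the log2 scale. By the exact permutation test over libraries (two-sided) p was 0.1, the smallest value that 3 libraries against 3 allow. Adjusted over the 12 chain ratios computed it was 0.15. Of these ratios, Col4a5 to Col4a6, Col3a1 to Col1a1, Col5a2 to Col5a1 and Col6a2 to Col6a1 overlapped between groups (exact permutation p = 0.2, adjusted 0.2). The remaining ratios did not overlap, including Col8a2 to Col8a1 (exact permutation p = 0.1, adjusted 0.15). Together Col4a1 and Col4a2 made up 87.2% ± 1.18 of the summed collagen level per kilobase in mutant libraries and 82.1% ± 0.502 in control libraries (SD, n = 3 each).

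Col4a3 (ENSMUSG00000079465, chromosome 1, 82586921 to 82722059, plus strand) showed the largest change of the class. Its chain is best known from the collagen network of the kidney filter, together with those of Col4a4 and Col4a5. It had 47.1, 48.7 and 52.4 CPM in mutant libraries, against 17.1, 19.1 and 16.5 CPM in control libraries. The groups were far apart relative to their spread, 2.81-fold, with a log2 fold change of 1.49 ± 0.074 (adjusted p = 2.45e-05). The gene overlaps the antisense transcript C430014B12Rik, which had 0.515 to 1.01 CPM. Col4a4, whose start lies 71 bases from that of Col4a3 on the other strand, had 1.70, 2.24 and 1.69 CPM in mutant and 2.07, 3.53 and 2.21 CPM in control libraries. Its groups overlapped, and its log2 fold change of -0.47 ± 0.249 was not called (adjusted p = 0.284). The ratio of Col4a3 to Col4a4 per kilobase was 29.5, 23.2 and 33.1 in mutant libraries and 8.78, 5.75 and 7.97 in control libraries, with no overlap (exact permutation p = 0.1, adjusted 0.15). Col4a3 therefore outweighed its head-to-head neighbour more in the mutant libraries.

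On the X chromosome, Col4a5 was called lower and its neighbour Col4a6 was not called. Col4a5 had 21.4, 20.0 and 16.1 CPM in mutant libraries, against 29.3, 27.4 and 26.4 CPM in control libraries. It was lower in every mutant library (log2 fold change -0.53 ± 0.109, adjusted p = 0.0163). Without control library 1 or control library 2 its adjusted p was 0.0656 or 0.0521. Col4a6 had 9.82, 9.92 and 6.65 CPM in mutant and 10.8, 11.7 and 10.3 CPM in control libraries. Those groups did not overlap, and the difference was not called (-0.32 ± 0.159, adjusted p = 0.26). Relative to Col4a1 per kilobase, Col4a5 fell by 0.88 on the log2 scale and the relative level of Col4a3 was 1.15 higher, each with no overlap between groups (exact permutation p = 0.1, adjusted 0.15).

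Among the multiplexins, Col18a1, whose chain releases the fragment endostatin, had 411, 404 and 441 CPM in mutant libraries, against 467, 459 and 501 CPM in control libraries. The groups did not overlap, and the difference of -0.18 ± 0.048 was close to the threshold (adjusted p = 0.0435). Without control library 1, 2 or 3 its adjusted p was 0.11, 0.079 or 0.115, and without mutant library 1 or 2 it was 0.127 or 0.16. Scaling with RLE size factors gave 0.0503 and limma-voom 0.051. Col15a1, which overlaps an antisense gene at 0 to 0.0643 CPM, had 102.04, 107.6 and 105.7 CPM in mutant and 103.4, 104.5 and 99.8 CPM in control libraries. Those ranges overlapped, and Col15a1 was not called (0.03 ± 0.038, adjusted p = 0.637).

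**Figure D2:**
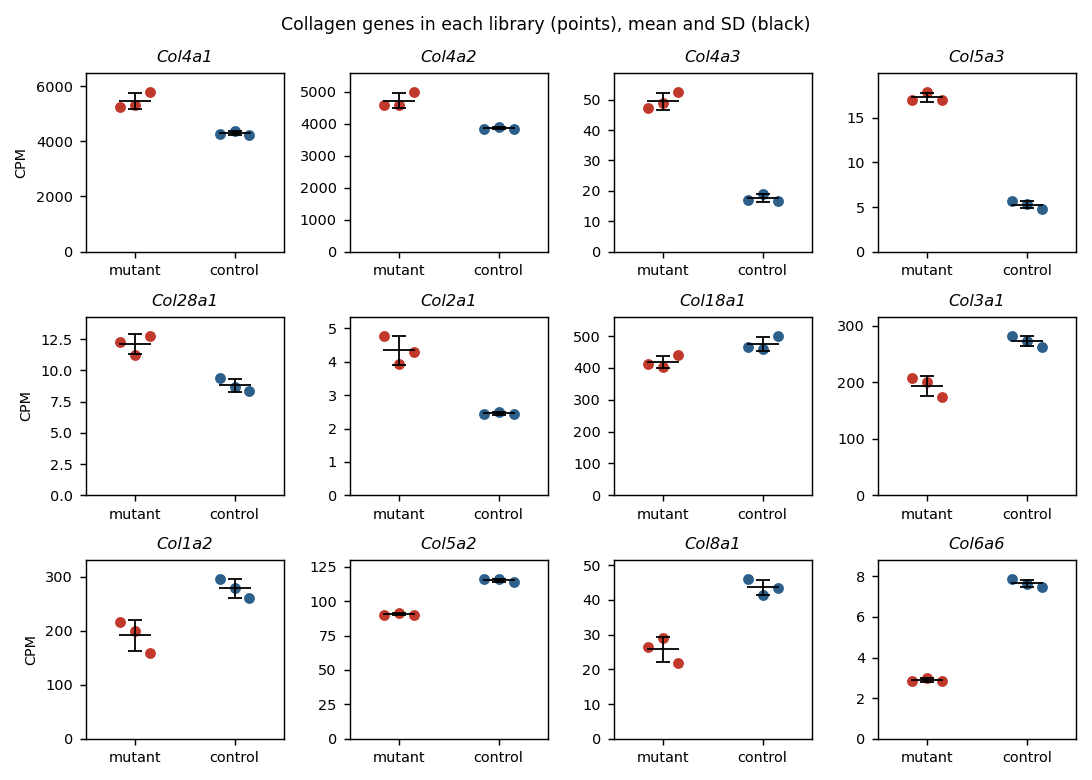
CPM of 12 collagen genes in each library (points), with the mean and SD of the group in black, mutant libraries on the left in red and control libraries on the right in blue. The 12 were picked from the 19 called collagen genes. In each the groups do not overlap. Col4a1, Col4a2, Col4a3, Col5a3, Col28a1 and Col2a1 are higher and the other 6 lower in mutant libraries. Of all 41 tested collagen genes 27 showed no overlap, and of all genes tested 34.1%.

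Fibrillar collagens. Of 11 tested, 2 were higher and 3 lower (45.5%, against 14.4% of all genes tested), and the median log2 fold change was -0.23. Col5a3 (ENSMUSG00000004098, chromosome 9, 20770050 to 20815067, minus strand), a minor chain of the type V collagen that starts fibrils, changed most of all called collagen genes. It had 17.01, 17.8 and 16.95 CPM in mutant libraries, against 5.66, 5.38 and 4.80 CPM in control libraries. The groups lay 3.27-fold apart with little spread, at a log2 fold change of 1.71 ± 0.091 (adjusted p = 3.25e-05). The other type V chains were lower or not called. Col5a2, the partner chain of the usual type V molecule, had 90.3, 91.8 and 89.8 CPM in mutant libraries, against 116, 116 and 114 CPM in control libraries. It was lower in every mutant library (-0.34 ± 0.032, adjusted p = 0.000422). Col5a1 had 29.7, 29.2 and 26.4 CPM in mutant and 33.0, 34.9 and 31.3 CPM in control libraries and was not called (-0.22 ± 0.069, adjusted p = 0.0822). The ratio of Col5a3 to Col5a1 per kilobase was 0.714, 0.761 and 0.800 in mutant libraries and 0.214, 0.192 and 0.191 in control libraries (exact permutation p = 0.1, adjusted 0.15), so Col5a3 lay nearer to Col5a1 in the mutant.

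The abundant fibrillar chains were lower or not called. Col3a1, the chain of type III collagen of soft tissues and vessel walls, had 207, 201 and 174 CPM in mutant libraries, against 282, 273 and 263 CPM in control libraries. The groups did not overlap (log2 fold change -0.49 ± 0.067, adjusted p = 0.0028). The gene shares exon sequence with the microRNA gene Gm47302, listed at 2.83 to 5.07 CPM. Col1a2, the second chain of type I collagen, had 216, 199 and 160 CPM in mutant libraries, against 295, 278 and 261 CPM in control libraries. It was lower in every mutant library and lowest in mutant library 3 (-0.54 ± 0.119, adjusted p = 0.0365). Its adjusted p was 0.111, 0.109 or 0.0782 without control library 1, 2 or 3 and 0.0987 without mutant library 2. Scaled by library size alone it was 0.0566, and unfiltered 0.0794. Col1a1, the major type I chain, had 186, 172 and 127 CPM in mutant and 217, 195 and 176 CPM in control libraries. Its groups overlapped, and it was not called (-0.28 ± 0.165, adjusted p = 0.373). The ratio of Col1a2 to Col1a1 per kilobase was 0.613, 0.612 and 0.661 in mutant libraries and 0.717, 0.754 and 0.783 in control libraries, with no overlap (exact permutation p = 0.1, adjusted 0.15).

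Col2a1, the fibrillar chain of cartilage, was low in all libraries, at 4.78, 3.94 and 4.31 CPM in mutant and 2.43, 2.51 and 2.43 CPM in control libraries. It was higher in every mutant library (0.82 ± 0.129, adjusted p = 0.00491). The remaining fibrillar genes Col11a1, Col11a2, Col24a1 and Col27a1 were not called, with log2 fold changes of -0.36, 0.42, -0.23 and 0.16 and adjusted p-values of 0.123, 0.383, 0.909 and 0.448. Of these, Col24a1 did not exceed 0.29 CPM in any library.

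Fibroblasts are a main source of fibrillar collagens in meninges and around vessels, and their markers are given here beside the collagens. Summed over the class, fibrillar collagens had 767, 728 and 612 CPM in mutant libraries, against 968, 920 and 868 CPM in control libraries. The fibroblast marker Pdgfra had 34.6, 34.9 and 26.5 CPM in mutant and 39.6, 38.004 and 34.1 CPM in control libraries, and decorin, Dcn, had 47.9, 46.4 and 34.5 CPM in mutant and 61.2, 56.5 and 55.9 CPM in control libraries. Neither marker was called (adjusted p = 0.289 for Pdgfra and 0.0829 for Dcn). Mutant library 3 was the lowest of the 6 for Pdgfra, Dcn and the fibrillar sum. Over the whole fibroblast list of 14 genes, 1 was higher (Apod) and 2 lower (Fmod and Fbln1), with a median of -0.24 and none at 0. Its summed level, given above, includes Apod, which had 267, 267 and 349 CPM in mutant and 127, 137 and 140 CPM in control libraries. Smooth muscle markers were lower in 6 of 9 cases, summing to 216 to 249.5 CPM in mutant and 432 to 464 CPM in control libraries. Of 10 pericyte markers 5 were higher and 1 lower, with summed levels of 4237 to 4366 CPM in mutant and 3969 to 4073 CPM in control libraries. Microglia markers were lower in 8 of 10 cases and astrocyte markers in 2 of 10. Of 10 neuron markers 1 was lower, and of 10 oligodendrocyte markers 3 were higher and 1 lower. Of 8 choroid plexus markers 3 were lower. The share called was 21.4% for fibroblast, 66.7% for smooth muscle, 60% for pericyte, 80% for microglia and 20% for astrocyte markers. For neuron, oligodendrocyte and choroid plexus markers it was 10%, 40% and 37.5%. Over all genes tested it was 14.4%. The gene Pdgfra also stands in the oligodendrocyte list, and Cspg4 in both the pericyte and the oligodendrocyte lists. The part of these cells in the collagen differences was not tested.

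**Figure D3:**
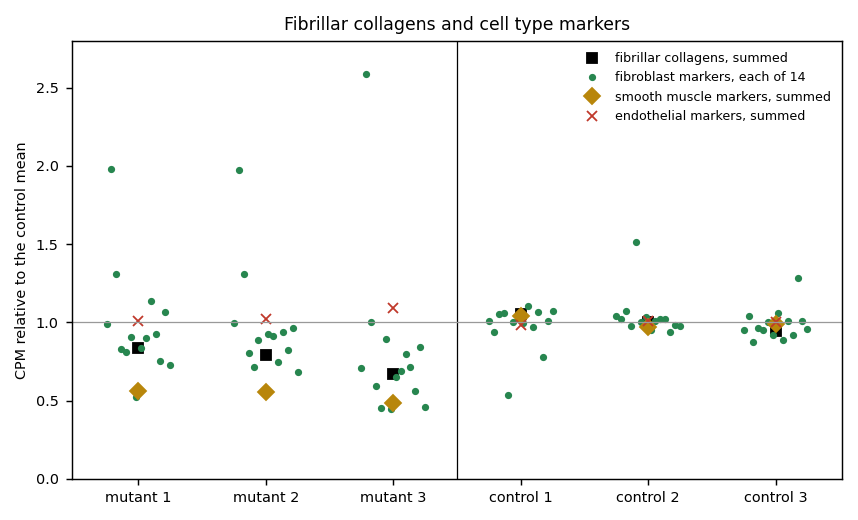
Levels in each library relative to the control mean of the summed fibrillar collagens, of each of the 14 fibroblast markers and of the summed smooth muscle and endothelial markers, mutant libraries on the left. In mutant library 3 the fibrillar sum is at 0.667 of the control mean and the endothelial sum at 1.09, while the fibroblast markers run from 0.447 to 2.59 with a median of 0.699, Apod being the highest.

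Other collagens. Of 25 genes, 22 were tested, and 2 were higher and 7 lower, the median log2 fold change being -0.37. The share called was 40.9%, against 14.4% of all genes tested. Both genes of type VIII, a short-chain network collagen of vessel walls and of the corneal membrane, were lower. Col8a1 had 26.5, 28.9 and 21.8 CPM in mutant libraries, against 45.9, 41.5 and 43.5 CPM in control libraries. The groups were well separated (log2 fold change -0.76 ± 0.104, adjusted p = 0.00275). Col8a2 had 18.7, 22.5 and 15.6 CPM in mutant and 29.5, 27.9 and 27.02 CPM in control libraries. It did not overlap between groups either (-0.57 ± 0.128, adjusted p = 0.0251). Its adjusted p was 0.0918, 0.0801 or 0.0649 without control library 1, 2 or 3 and 0.089 without mutant library 1. In the same libraries 6 of 9 smooth muscle markers were called lower, as were 8 of 10 microglia markers. Of 10 pericyte markers 5 were higher and 1 lower, and of 14 fibroblast markers 1 was higher and 2 lower. Astrocyte markers were lower in 2 of 10 cases and choroid plexus markers in 3 of 8. Over all genes tested 7.56% were higher and 6.83% lower. A link of the type VIII genes to any cell type was not tested.

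Type VI collagen forms beaded filaments next to basement membranes. Its alternative chain gene Col6a6 (ENSMUSG00000043719, chromosome 9, 105687809 to 105828160, minus strand) had 2.86, 3.00 and 2.85 CPM in mutant libraries, against 7.84, 7.64 and 7.49 CPM in control libraries. This was the largest fall among called collagen genes, to 0.379 of the control level (log2 fold change -1.40 ± 0.099, adjusted p = 0.000113), with no overlap and little spread. Its overlapping antisense gene Gm38314 had no counts. Of the 3 standard chains, Col6a2 was lower, with 48.7, 45.2 and 36.3 CPM in mutant and 65.9, 57.5 and 58.9 CPM in control libraries (-0.49 ± 0.115, adjusted p = 0.0367). Without control library 1, 2 or 3 its adjusted p was 0.109, 0.0784 or 0.0932, and without mutant library 2 it was 0.0958. Scaled by library size alone it was 0.0533, and unfiltered 0.0505. Its neighbour on chromosome 10, Col6a1, had 49.5, 47.8 and 35.3 CPM in mutant and 62.0, 56.2 and 52.8 CPM in control libraries and was not called (-0.37 ± 0.14, adjusted p = 0.162), while DESeq2 gave an adjusted p of 0.045. Col6a3 had 26.6, 23.4 and 19.9 CPM in mutant and 24.9, 24.3 and 20.9 CPM in control libraries, with overlapping groups (-0.01 ± 0.118, adjusted p = 0.981). The ratio of Col6a3 to Col6a1 per kilobase was 0.197, 0.180 and 0.206 in mutant libraries and 0.147, 0.159 and 0.145 in control libraries (exact permutation p = 0.1, adjusted 0.15). Col6a5 was not called (adjusted p = 0.903), at 0.351 to 1.26 CPM in mutant and 0.416 to 0.872 CPM in control libraries.

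Transmembrane collagens sit in the cell membrane and shed their outer part. Col13a1, known from the neuromuscular junction, had 3.87, 3.11 and 2.78 CPM in mutant and 5.53, 6.19 and 4.63 CPM in control libraries. The groups did not overlap (-0.74 ± 0.171, adjusted p = 0.0265), and the adjusted p was 0.0844, 0.0966, 0.086 or 0.0748 without control library 1, control library 2, mutant library 2 or mutant library 3. Col23a1 had 12.7, 11.6 and 10.0 CPM in mutant and 15.3, 15.1 and 15.1 CPM in control libraries. It was lower in every mutant library (-0.41 ± 0.098, adjusted p = 0.0305). Its adjusted p was 0.0943, 0.0876 or 0.0789 without control library 1, 2 or 3 and 0.0829 or 0.0522 without mutant library 2 or 3. The genes Col17a1 and Col25a1, both under 1.5 CPM in every library, were not called (adjusted p = 0.841 and 0.295).

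Col26a1, which encodes a secreted protein with short collagen stretches, had 27.4, 25.9 and 23.7 CPM in mutant libraries, against 40.2, 38.004 and 36.9 CPM in control libraries. It was lower in every mutant library (-0.58 ± 0.070, adjusted p = 0.0014). Col28a1, whose chain carries von Willebrand factor type domains and is known from peripheral nerve, had 12.3, 11.2 and 12.8 CPM in mutant and 9.36, 8.69 and 8.34 CPM in control libraries. It was higher in every mutant library (0.46 ± 0.090, adjusted p = 0.0138). The FACIT gene Col9a1, a cartilage collagen that binds type II fibrils, had 1.54, 1.66 and 1.42 CPM in mutant and 0.973, 0.843 and 0.854 CPM in control libraries. The groups did not overlap (0.79 ± 0.195, adjusted p = 0.0346), and the adjusted p was 0.0684, 0.0984 or 0.0899 without control library 1, 2 or 3 and 0.0904, 0.11 or 0.0554 without mutant library 1, 2 or 3.

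The other 7 tested FACIT genes (Col9a2, Col9a3, Col12a1, Col14a1, Col16a1, Col20a1 and Col22a1) were not called. Of these, Col12a1, of dense connective tissue, had 16.2, 17.3 and 12.1 CPM in mutant and 21.9, 21.4 and 19.6 CPM in control libraries (-0.47 ± 0.132, adjusted p = 0.0577). The cartilage gene Col9a3 had 23.5, 23.4 and 17.5 CPM in mutant and 29.7, 27.7 and 26.6 CPM in control libraries (-0.38 ± 0.119, adjusted p = 0.0795). Both missed the threshold. Their groups did not overlap, as was found in 34.1% of all genes tested. DESeq2 gave adjusted p-values of 0.0111 and 0.027. Col20a1 had 0.0486, 0.0515 and 0.0405 CPM in mutant and 0.19, 0.33 and 0.183 CPM in control libraries. Its mutant levels lay below the floor of 3 read pairs (12 counts), which is 0.146 to 0.162 CPM in mutant libraries, and no fold is given. The anchoring fibril gene Col7a1 of skin was not called (0.13 ± 0.081, adjusted p = 0.378), at 20.1 to 24.3 CPM in mutant and 19.7 to 20.9 CPM in control libraries.

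The 3 untested members were Col6a4, Col10a1 and Col19a1. Col19a1 had a count of 0 in all 6 libraries, which allows up to 0.162 CPM at the floor of 3 read pairs, a limit that covers counting error only. Col6a4 had counts of 4, 0 and 16 in mutant and 0, 4 and 4 in control libraries, and Col10a1 41, 8 and 16 in mutant and 8, 0 and 0 in control libraries. Col10a1 lies across exons of the antisense gene Nt5dc1, which had 9.92 to 17.99 CPM.

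**Figure D4:**
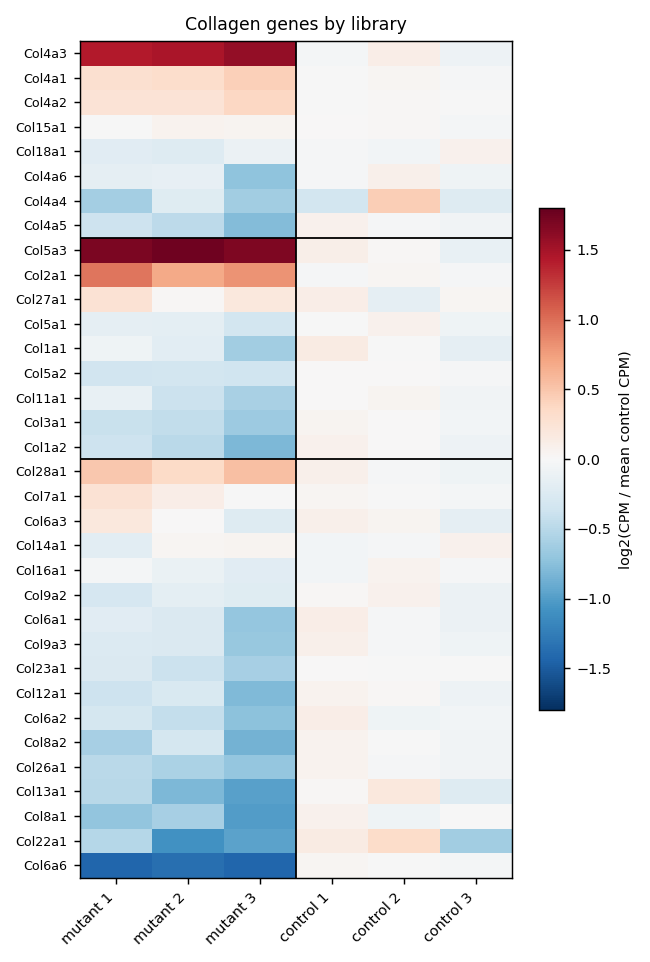
Log2 of CPM over the mean control CPM for the 34 tested collagen genes with at least 1 CPM in control libraries, 1 row per gene in the order basement membrane, fibrillar and other, with mutant libraries on the left. Red is higher and blue lower than the control mean, and mutant library 3 has the strongest blue in genes such as Col1a2, Col6a1, Col12a1 and Col8a1.

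Libraries of a group differed in a way that many collagen genes shared. Among mutant libraries, library 3 was the lowest in 28 of 41 tested members, library 1 in 7 and library 2 in 6. Among control libraries, library 3 was the lowest in 27, library 2 in 9 and library 1 in 5. Over all genes tested, each library was the lowest of its group in 32.4% to 34.9% of genes. For Col4a1 and Col4a2 mutant library 3 was instead the highest library. Without mutant library 3, 6 members were higher and 10 lower, and Col1a1 had a log2 fold change of -0.13 (adjusted p = 0.514).

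Levels of the genes spanned a wide range per kilobase of exon. Col4a1 averaged 730 ± 37.7 CPM per kilobase in mutant and 576 ± 10.2 in control libraries, and Col4a2 712 ± 34.6 in mutant and 583 ± 6.29 in control libraries (SD, n = 3 each). The means of this pair lay within their spread of each other in both groups. Within each library Col4a1 was the higher in the mutant group and Col4a2 in the control group. That order depended on the length used. With the longest transcript Col4a1 was the higher in every library of both groups. In control libraries it then had 645, 663 and 641 CPM per kilobase, against 595, 606 and 595 for Col4a2. Col18a1 came next, at 59.7 ± 2.79 CPM per kilobase in mutant and 67.8 ± 3.14 in control libraries, followed by Col1a1 at 24.6 ± 4.64 and 29.9 ± 3.14 and by Col3a1 at 19.7 ± 1.798 and 27.8 ± 0.971 in the same group order. The control ranges of Col1a1 and Col3a1 overlapped, and their order depended on the length used. With the longest transcript Col1a2 and Col3a1 averaged 52.0 and 49.0 CPM per kilobase in control libraries, above Col1a1 at 33.1. With its rise, Col4a3 stood at place 12 of 44 in mutant libraries, at 4.96 ± 0.272 CPM per kilobase, against place 23 in control libraries, at 1.76 ± 0.135. Col5a3 stood at place 18 in mutant libraries, at 2.54 ± 0.072, against place 29 in control libraries, at 0.775 ± 0.065. As a share of the summed level per kilobase, basement membrane genes held 92.4% ± 1.14 in mutant and 88.6% ± 0.58 in control libraries, fibrillar genes 4.67% ± 0.707 in mutant and 6.96% ± 0.374 in control libraries, and other genes 2.93% ± 0.432 in mutant and 4.43% ± 0.21 in control libraries. These shares are tied to each other through the total.

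**Figure D5:**
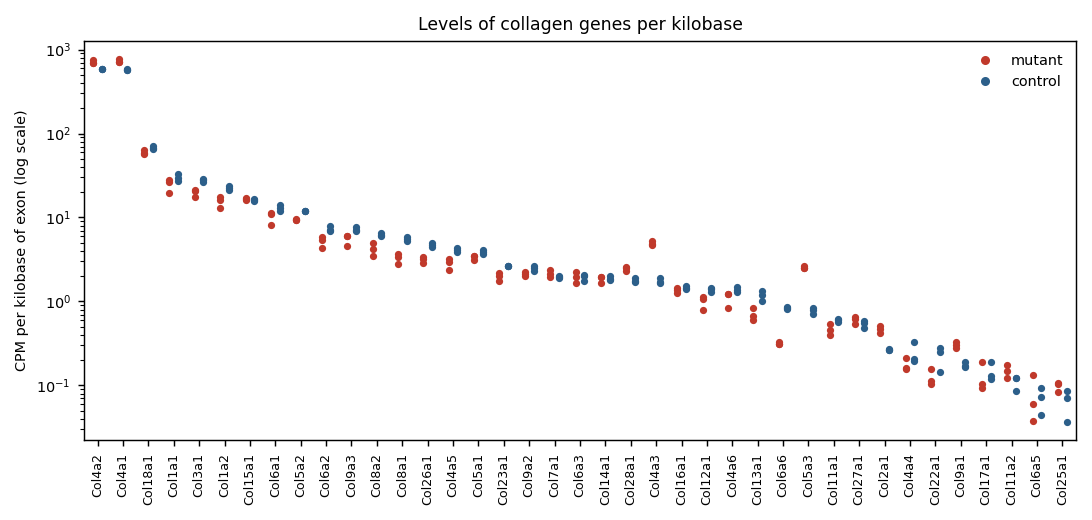
Level of 39 collagen genes in CPM per kilobase of exon on a log axis, ordered by their control mean, with mutant libraries in red left of control libraries in blue. Col4a1 and Col4a2 lie far above all others, and the red points of Col4a3 and Col5a3 lie well above their blue points.

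Genes for the synthesis, processing and crosslinking of collagen, of enzymes and other proteins, were also examined. Of 34 tested, 10 were higher and 6 lower (47.1%, against 14.4% of all genes tested), and their median log2 fold change was 0.11. The crosslinking gene Loxl2, a lysyl oxidase of basement membranes, had 106, 107 and 104 CPM in mutant libraries, against 52.1, 46.1 and 50.6 CPM in control libraries (log2 fold change 1.09 ± 0.052, adjusted p = 2.2e-05). Peroxidasin, Pxdn, which crosslinks the type IV network, had 377, 373 and 391 CPM in mutant libraries, against 230.2, 227 and 209 CPM in control libraries (0.77 ± 0.044, adjusted p = 4.87e-05). Both were higher in every mutant library, as were the type IV chains Col4a1, Col4a2 and Col4a3. Of the other type IV chains, Col4a5 was called lower and Col4a4 and Col4a6 were not called.

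The other 4 named genes of this list were lower. Pcolce, an enhancer of procollagen cleavage, had 30.8, 33.2 and 29.8 CPM in mutant and 52.6, 50.9 and 53.8 CPM in control libraries (-0.75 ± 0.056, adjusted p = 0.000148). The lysyl oxidases Lox and Loxl1 fell by 0.66 and 0.69 on the log2 scale (adjusted p = 0.00168 and 0.00827). Tll1, a procollagen-cleaving proteinase, fell by 0.54 (adjusted p = 0.0182), with an adjusted p of 0.0684, 0.0598, 0.0626 or 0.051 when control library 1 or 3 or mutant library 1 or 2 was left out, in that order. Pcolce shares exon sequence with Fbxo24 on its strand, and Loxl2, Lox and Pcolce overlap antisense genes. The further higher genes were P4ha1, P4hb, Plod1, Plod2, P3h3, Colgalt2, Creb3l1 and Sparc, which hydroxylate, glycosylate, regulate or bind collagen, and the further lower ones Pcolce2 and Crtap. With control library 1 or 3 or mutant library 1 left out, the count of lower genes in this list was 3.

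Receptors and basement membrane partners split as well. Of 20 genes, 19 were tested, with 5 higher and 7 lower and a median of -0.26, and Gp6 was not tested. The share called was 63.2%, against 14.4% of all genes tested. Nid2, a nidogen that links laminin to type IV collagen, had 1188, 1079.6 and 1156 CPM in mutant libraries, against 569.8, 593 and 573 CPM in control libraries (0.98 ± 0.042, adjusted p = 1.45e-05), and it overlaps the antisense gene Rtraf. Hspg2, which encodes perlecan, had 1687, 1621 and 1778 CPM in mutant libraries, against 1092, 1155 and 1055 CPM in control libraries (0.62 ± 0.047, adjusted p = 0.000155). Itga2, the alpha subunit of a collagen-binding integrin, had 38.4, 36.8 and 38.9 CPM in mutant libraries, against 18.7, 19.5 and 21.003 CPM in control libraries (0.95 ± 0.063, adjusted p = 8.49e-05). Each of the 3 was higher in every mutant library. The matricellular gene Smoc2 rose by 0.72 ± 0.065 (adjusted p = 0.000347).

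Adgrg6, an adhesion receptor that binds type IV collagen and overlaps an antisense gene, had 21.9, 23.6 and 27.7 CPM in mutant libraries, against 45.6, 47.0 and 46.3 CPM in control libraries (-0.92 ± 0.088, adjusted p = 0.000435). Tinagl1, a basement membrane protein gene, fell by 0.69 ± 0.051 (adjusted p = 0.000134). Both were lower in every mutant library. The remaining called genes were Nid1, which was higher, and Agrn, Ddr2, Mrc2, Adgrg1 and Itga10, which were lower.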

How the data were processed

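Poly(A) RNA-seq of 3 mutant and 3 control libraries was analysed from the deposited gene table. It holds estimated counts per gene, deposited as whole numbers and not normalized. The submitters' processing notes list the build GRCm39 and the tools StringTie 1.3.4, HISAT2, cutadapt 1.10, FastQC 0.10.1 and edgeR, without their order or role. All 55450 gene identifiers matched GENCODE M21 (GRCm38), from which symbols, coordinates and exon lengths were taken. No rounding was needed for the planned count test. Low values pile up at 4 (1118 to 1190 genes per library had a count of 4 and 171 to 189 a count of 5), so precision follows read pairs.

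Genes were filtered with filterByExpr (19549 kept), scaled by TMM and tested in edgeR 4.0.16 (R 4.3.3) with its robust quasi-likelihood F test, group being the only term. The Benjamini-Hochberg adjustment covered every gene tested, and genes under 0.05 were called. The SE is the log2 fold change over the square root of F. CPM are TMM-scaled, and levels per kilobase use the union of exons. Members and lists were chosen with earlier results of these data known. Named were all called members, all basement membrane members, and per further list the 6 called genes of largest change with at least 5 CPM. Alternatives were RLE scaling, library size only, other filters, DESeq2 1.42.0, limma-voom (limma 3.58.1), counts divided by 4, a replicate block and each library left out. No 2 libraries of a group were duplicates (median chi-square 1.90 to 2.83 times its expectation, against 6.27 to 7.32 between groups), so each was entered as 1 library. This does not show that they are separate biological samples.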

Additional observations from a re-analysis of the deposited data

How the results depend on the processing

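Of 19 called collagen genes, 11 kept their direction and call under every alternative that tested them: Col4a1, Col4a2, Col4a3, Col5a3, Col2a1 and Col28a1 higher, and Col3a1, Col5a2, Col6a6, Col8a1 and Col26a1 lower. The other 8 lost the call under at least 1 fit with a library left out, and each kept its direction. With 1 library left out, 6 members were higher in every fit and 5 to 10 lower. By class these fits gave 3 higher and 0 to 2 lower basement membrane genes, 2 higher and 2 to 3 lower fibrillar genes, and 1 higher and 3 to 6 lower other genes. For synthesis genes they gave 9 to 10 higher and 3 to 5 lower, and for receptors and partners 5 higher and 5 to 6 lower. For markers of other cells they gave 6 to 9 higher and 14 to 22 lower, against 8 and 24 in the main fit. The share of all genes called was 9.44% to 11.9% in these fits and 14.4% in the main fit. Fits on 5 libraries have fewer samples. RLE scaling and limma-voom each left 1 lower basement membrane gene. The stricter filter, which tested fewer genes, left 1 higher fibrillar and 1 higher other gene. Per kilobase of the longest transcript, Col4a1 and Col4a2 held 84.2% of the collagen level in mutant and 77.7% in control libraries.

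The labels give both groups replicate numbers 1 to 3, but over all genes tested same-numbered libraries did not deviate together (correlations -0.02, 0.01 and 0.02), so the numbers were not taken as pairs. Over the 41 collagen genes alone, examined after seeing the data, these correlations were 0.40, 0.22 and 0.26, and each library correlated best with its own number, a hint from the data and not from the design. With the replicate block, 6 members were higher and 13 lower, with 1 higher other gene and 3 lower synthesis genes. Col9a1, Col23a1 and Tll1 were no longer called (adjusted p = 0.0888, 0.0546 and 0.0619), Col6a1 and Col12a1 were called (0.0392 and 0.037), and Col1a1 stood at 0.0505.

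Members that were not called changed sign in 12 cases, 11 of them with 1 library left out. Those fits gave log2 fold changes of -1.03 to 0.49 for Col24a1, -0.11 to 0.10 for Col6a3, -0.52 to 0.48 for Col6a5, -0.064 to 0.044 for Col14a1 and -0.55 to 0.074 for Col17a1. Counts divided by 4 gave 0.0039 for Col6a3. The cause was not tested. A level of 1 CPM rests on about 20 read pairs per library, and of the tested members with a control mean under 1 CPM only Col9a1 was called.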
